A study of Homo sapiens with 6 samples.

Results

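The genes that make, break down and bind hyaluronan were followed in xenograft tumours with a knockdown of VCAN. The 9 genes were chosen by symbol and comprise 2 hyaluronan synthases (HAS2 and HAS3), 5 genes of hyaluronan breakdown (HYAL1, HYAL2, HYAL3, CEMIP and CEMIP2), the receptor CD44, and TNFAIP6. All 9 had a row in the deposited table of 67026 genes. The tumours were grown from PC-3 cells, a long-established line of human prostate cancer, which carried a lentiviral short hairpin RNA against VCAN (shVCAN, 3 tumours) or against GFP (shGFP, the knockdown control, 3 tumours). Cells of both groups had been selected with puromycin, and were injected in Matrigel under the skin of male NSG mice of 4 to 5 weeks, which lack lymphocytes but keep myeloid cells and stroma, and tumours were followed for 4 weeks. RNA of the whole tumour was sequenced. The labels do not say how many hairpins against VCAN were used, whether the cells were clones, or whether each numbered xenograft came from its own mouse, so p-values measure the spread between these samples.

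Hyaluronan is a long, unsulfated sugar chain of the extracellular matrix. Synthases in the plasma membrane build it from UDP-glucuronic acid and UDP-N-acetylglucosamine and push it out of the cell, where hyaluronidases and CEMIP cut it and receptors such as CD44 bind it. Versican, the product of VCAN, binds hyaluronan through its amino-terminal domain, and link proteins hold the 2 together. In prostate tumours hyaluronan is found in the stroma and around cancer cells.

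Libraries held 11253058 to 13327617 counts. VCAN had 69, 39 and 44 counts in the shVCAN tumours, against 133, 104 and 121 counts in the shGFP tumours, and its log2 fold change was −1.53 (SE 0.207; Benjamini-Hochberg adjusted p = 4.59e-07 in edgeR's quasi-likelihood test). Messenger RNAs of the mitochondrial genome took 6.39% to 7.63% of the counts in shVCAN and 13.3% to 16.2% in shGFP. Levels are given as CPM, a gene's counts per 1000000 counts of the TMM-adjusted library size. The epithelial markers fell in 4 of 5 genes tested, with log2 fold changes of −0.29 (EPCAM), −0.19 (KRT8), −0.54 (KRT18) and −2.20 (CDH1). KRT19, the highest of the 5 by mean CPM, was not called (−0.062). The summed level of the 5 was 1133 to 1175 CPM in shVCAN and 1300 to 1434 CPM in shGFP. Values by other scalings are not given for these markers. Of 5 genes of the androgen receptor axis, 3 were tested and none was called, and KLK2 and KLK3 had 0 counts in every library. Some genes used as markers of host cell types fell too. For scale, 21.1% of all tested genes fell (edgeR adjusted p under 0.05). Of 8 fibroblast markers, 6 were tested and 5 fell, with a summed level of 362.7 to 462 CPM in shVCAN and 813 to 921 CPM in shGFP. Within that sum COL1A1 averaged 300.5 CPM in shVCAN and 618.8 CPM in shGFP. DCN, not tested, had 0 counts in every shVCAN library and 0, 5 and 0 counts in the shGFP libraries. Of 8 macrophage markers, 3 were tested and 1 fell, with a summed level of 1.82 to 3.28 CPM in shVCAN and 4.29 to 7.06 CPM in shGFP, and AIF1 and CD163 had 0 counts. CD68, in that sum, shares 85.8% of its exonic bases with other genes, so its level may be understated. Of 7 endothelial markers, 5 were tested and 4 fell, with a summed level of 84.3 to 86.2 CPM in shVCAN and 126.9 to 129.7 CPM in shGFP. PECAM1, KDR and ROBO4 averaged 24.1, 24.0 and 33.7 CPM in shVCAN, and 33.4, 45.5 and 39.85 CPM in shGFP. VWF and EMCN, not tested, averaged 0.241 and 0.386 CPM in shVCAN, and 0.214 and 0.887 CPM in shGFP. Of 7 skeletal muscle markers, 5 were tested and 4 fell, with a summed level of 152.5 to 226.7 CPM in shVCAN and 193.8 to 339.4 CPM in shGFP, and TNNT3 had 0 counts. The groups overlapped in the summed level and in ACTA1, MYH2 and TTN, which fell, but not in MYH4. None of 4 adipocyte markers was tested, with a summed level of 0.141 to 0.657 CPM in shVCAN and 0.913 to 2.00 CPM in shGFP, and ADIPOQ and LEP had 0 counts. The sources used here do not state whether mouse reads were removed. In bulk tissue fewer cells of a type, less RNA per cell and a change in the PC-3 cells themselves cannot be told apart. The part of host cells and of the mitochondrial share in the results was not tested.

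A gene was called higher or lower at an adjusted p under 0.05 over the 16254 genes that passed the filter on low counts. By that rule 3 hyaluronan genes rose in shVCAN (CD44, HYAL2 and TNFAIP6), 3 fell (HAS3, CEMIP and CEMIP2), and HAS2 and HYAL3 were not called, while HYAL1 was too low to be tested. The calls made up 6 of 8 tested members, against 40.3% of all tested genes (19.2% higher and 21.1% lower). The members were chosen with earlier results of these data known, so these shares are a description only. The CPM of the groups did not overlap in 7 of the 8, against 48.7% of all tested genes. The median log2 fold change of the 8 was 0.23, beside 0.0014 over all tested genes. The 2 directions were split within the breakdown genes and across the roles. Scaling by library size alone moved the median log2 fold change of all genes to 0.168. It also called HAS2 and HYAL3 higher, so that 5 members rose and 3 fell, and it turned 3120 higher and 3425 lower calls over all genes into 5228 and 1890.

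**Figure D1:**
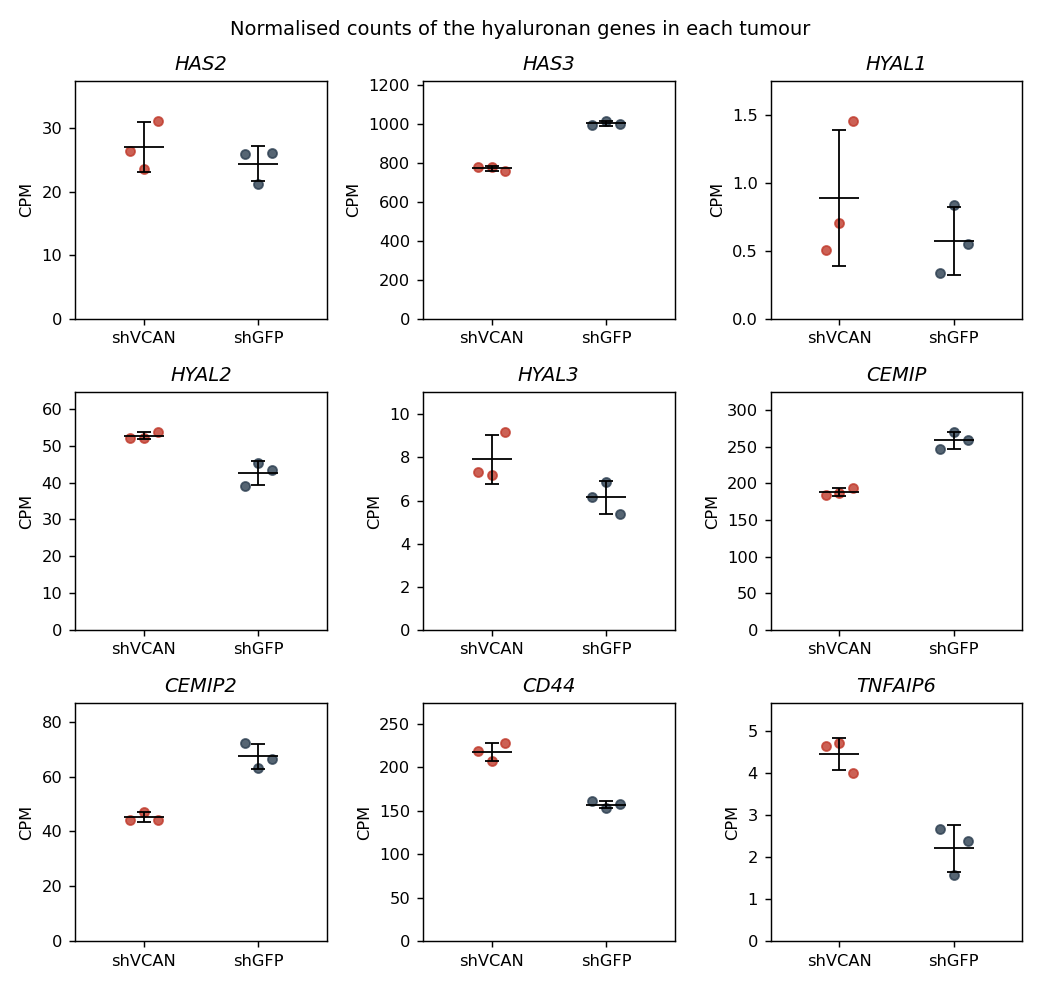
CPM (TMM-scaled) of each hyaluronan gene, 1 panel per gene with its own linear axis from 0. Points are tumours, bars the mean ± SD of 3 tumours; the groups are apart in 7 panels and overlap in HAS2 and HYAL1.

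Bases before the RefSeq transcription start are shown for HAS3 and CEMIP, which fell together, and for TNFAIP6, which rose, because these windows hold 0, 27 and 0 bases of GENCODE 29 exons. The 250 bases run 5′ to 3′ on the gene's strand, here plus for each, on GRCh38.p14, with motif matches in capitals. The windows are chr16:69107290-69107539 for HAS3, chr15:80779120-80779369 for CEMIP and chr2:151357342-151357591 for TNFAIP6. The HAS3 window lies inside the gene as GENCODE 29 draws it, with an earlier start at 69105564.
HAS3: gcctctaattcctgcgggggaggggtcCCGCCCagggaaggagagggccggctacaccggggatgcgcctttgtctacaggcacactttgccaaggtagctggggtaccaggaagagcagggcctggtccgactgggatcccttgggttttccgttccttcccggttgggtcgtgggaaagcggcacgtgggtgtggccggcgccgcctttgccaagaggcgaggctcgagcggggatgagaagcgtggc
CEMIP: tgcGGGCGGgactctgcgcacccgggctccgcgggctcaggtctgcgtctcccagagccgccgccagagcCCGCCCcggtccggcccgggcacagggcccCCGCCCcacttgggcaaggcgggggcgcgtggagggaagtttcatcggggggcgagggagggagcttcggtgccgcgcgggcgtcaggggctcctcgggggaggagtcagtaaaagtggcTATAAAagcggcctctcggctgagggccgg
TNFAIP6: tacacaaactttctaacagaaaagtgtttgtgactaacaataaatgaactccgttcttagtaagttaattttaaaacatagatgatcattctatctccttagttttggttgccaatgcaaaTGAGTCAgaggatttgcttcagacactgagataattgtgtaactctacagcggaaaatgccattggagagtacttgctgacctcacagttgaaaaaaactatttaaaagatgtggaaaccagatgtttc
Motifs were searched on both strands of the 250 bases of 35114 RefSeq promoters. They were the GC box (GGGCGG, in 42.6% of promoters), the TATA box (TATAAA, 10.7%), the AP-1 site (TGANTCA, 6.57%), the TEAD site (CATTCC, 11.9%) and the NF-kappaB consensus (5.21%). HAS3 held 1 GC box, CEMIP 3 GC boxes and a TATA box 30 to 25 bases before the start, and TNFAIP6 an AP-1 match 129 to 123 bases before the start, with no overlap between matches. Of the 9 members 8 had an entry, all but HAS2. Of those not shown, CD44 and HYAL1 held 2 GC boxes each, CEMIP2 had 1 GC box and HYAL2 a TEAD match. Each of the 2 HYAL3 promoters held 2 GC boxes, and 1 of them also held a TEAD and an NF-kappaB match. A match describes the letters only.

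HAS3, the synthase with the higher level, fell. It had 780.3, 779 and 757 CPM in the shVCAN tumours, against 993, 1017 and 998 CPM in the shGFP tumours. Every shVCAN tumour lay below every shGFP tumour, and the tumours of a group differed by less than the gap between groups. The means were 772 ± 13.2 CPM in shVCAN and 1002 ± 12.5 CPM in shGFP (SD, n = 3 each), a log2 fold change of −0.38 (SE 0.0417, edgeR adjusted p = 1.33e-08). With library size alone the log2 fold change was −0.21 (adjusted p = 0.00044). HAS3 ranked 100 by mean CPM among the 16254 tested genes. It lies on chromosome 16 (69105564 to 69118719, plus strand, GRCh38, by GENCODE 29), and CHTF8 on the opposite strand covers 6.90% of its exonic bases. CHTF8 averaged 0.165 CPM in shVCAN and 0.51 CPM in shGFP. How reads in shared bases were counted is not stated, so the CHTF8 level may be understated.

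HAS2, the synthase known for very long chains and needed for heart development in mice, was not called. HAS2 had 26.4, 23.5 and 31.2 CPM in the shVCAN tumours, against 26.0, 21.2 and 26.0 CPM in the shGFP tumours, and the groups overlapped. Its log2 fold change was 0.14 with a 95% interval of −0.079 to 0.37 (edgeR adjusted p = 0.336), and without shVCAN tumour 3 it was 0.028. It was −0.032 after an offset that removes how log2 CPM varies in each library with exonic length and GC content. With library size alone it was 0.31 (adjusted p = 0.0236). Over 16003 tested genes of known length, the log2 fold change fell with exonic length (Spearman correlation −0.227). HAS3 had a log2 fold change of −0.27 with the offset and was still called. HAS2 lies on chromosome 8 (121612116 to 121641390, minus strand) and shares 4.8% of its exonic bases with the antisense gene HAS2-AS1, which averaged 2.65 ± 0.539 CPM in shVCAN and 1.69 ± 0.198 CPM in shGFP (SD, n = 3 each; adjusted p = 0.13, edgeR). The third synthase gene, HAS1, had 0 counts in all 6 libraries.

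Among the breakdown genes, CEMIP and CEMIP2 fell and HYAL2 rose. CEMIP binds hyaluronan and is needed for its depolymerisation by skin fibroblasts. It had 184, 187 and 194 CPM in the shVCAN tumours, against 247, 270.3 and 259 CPM in the shGFP tumours. The groups were apart by more than their spread, with a log2 fold change of −0.46 (SE 0.0525, edgeR adjusted p = 2.69e-08). The log2 fold change of CEMIP was −0.29 with library size alone and −0.28 with the offset for length and GC content, called in both. CEMIP lies on chromosome 15 (80779343 to 80951776, plus strand) and shares 2.94% of its exonic bases with MESD on the opposite strand.

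CEMIP2, formerly TMEM2, is a membrane protein related to CEMIP that acts as a cell-surface hyaluronidase in mice. It had 44.3, 47.3 and 44.2 CPM in the shVCAN tumours, against 72.4, 63.4 and 66.5 CPM in the shGFP tumours. All shVCAN values lay below all shGFP values, with a log2 fold change of −0.58 (SE 0.0753, edgeR adjusted p = 2.85e-07), the lowest of the 8 tested members. With the offset for length and GC content the log2 fold change was −0.43, still called. CEMIP2 lies on chromosome 9 (71683366 to 71816690, minus strand), and none of its exonic bases are shared with another gene in GENCODE 29.

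HYAL2, a GPI-anchored hyaluronidase of the cell surface, moved the other way. It had 52.0, 52.2 and 53.8 CPM in the shVCAN tumours, against 39.1, 45.3 and 43.4 CPM in the shGFP tumours. The groups did not overlap, and the shVCAN tumours lay closer together (SD 0.958 CPM) than the shGFP tumours (SD 3.18 CPM). The log2 fold change was 0.31 (SE 0.0793, edgeR adjusted p = 0.00222), and 0.47 with library size alone. HYAL2 shares 11.2% of its exonic bases with TUSC2 on the same strand, and TUSC2 rose by a similar amount, a log2 fold change of 0.32 (SE 0.0847, adjusted p = 0.0032). Reads in those shared bases cannot be assigned to 1 of the 2 genes.

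HYAL1, HYAL2 and HYAL3 lie side by side on chromosome 3 (50292831 to 50322906 from the end of HYAL3 to the start of HYAL2, minus strand). HYAL3, whose own enzyme activity is weak, had 7.33, 7.20 and 9.19 CPM in the shVCAN tumours, against 6.16, 6.88 and 5.39 CPM in the shGFP tumours. The groups did not overlap, but the log2 fold change of 0.36 had a 95% interval of −0.0025 to 0.73 and was not called (edgeR adjusted p = 0.124). It was called with library size alone (0.53, adjusted p = 0.0211) and was 0.24 without shVCAN tumour 3. HYAL3 shares 12.2% of its exonic bases with NAA80 and 2.12% with IFRD2, which were not called. HYAL1, the lysosomal hyaluronidase of serum and tissues, had 7, 10 and 20 counts in the shVCAN tumours, against 4, 9 and 6 counts in the shGFP tumours. These counts overlap between groups and are too few to show a difference at this depth.

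CD44, the main surface receptor for hyaluronan, rose. It had 218, 207 and 228 CPM in the shVCAN tumours, against 161, 153 and 157 CPM in the shGFP tumours. The groups were well apart, with means of 218.0 ± 10.3 CPM in shVCAN and 157.1 ± 4.37 CPM in shGFP (SD, n = 3 each) and a log2 fold change of 0.47 (SE 0.0546, edgeR adjusted p = 2.96e-08). CD44 lies on chromosome 11 (35138870 to 35232402, plus strand) and has many splice forms, which counts per gene do not separate.

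TNFAIP6, also called TSG-6, is a secreted protein that moves heavy chains of inter-alpha-inhibitor onto hyaluronan and is induced in inflammation. It had 64, 67 and 55 counts in the shVCAN tumours, against 32, 17 and 26 counts in the shGFP tumours. In CPM these were 4.64, 4.73 and 4.01 in shVCAN and 2.66, 1.58 and 2.38 in shGFP, and the groups did not overlap. The log2 fold change of 1.01 (SE 0.272, edgeR adjusted p = 0.00354) was the highest of the 8 and also had the widest error. With the offset for length and GC content it was 0.62 and no longer called (adjusted p = 0.0742). TNFAIP6 lies on chromosome 2 (151357592 to 151380048, plus strand) and has an exonic length of 1.58 kb, the shortest of the 9.

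**Figure D2:**
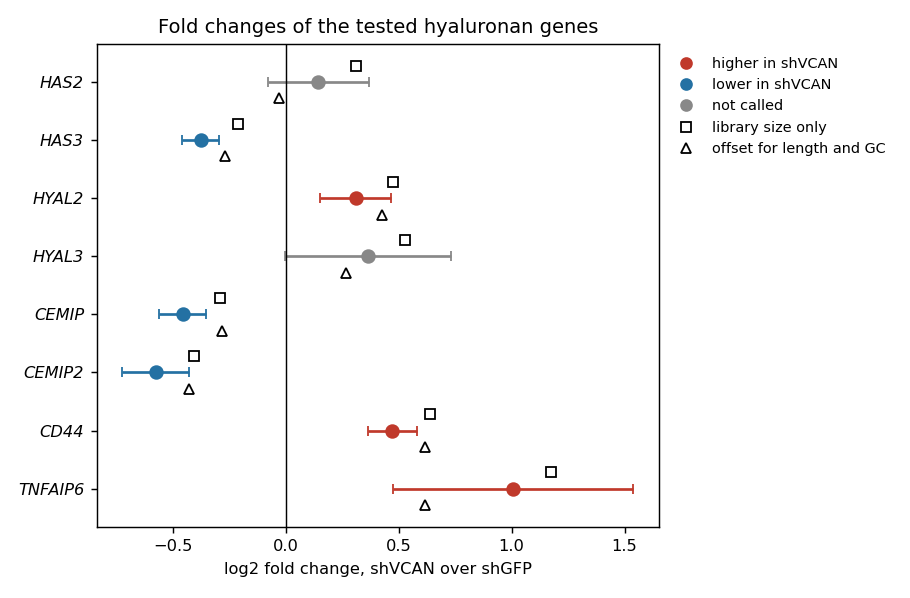
Log2 fold changes (shVCAN over shGFP, horizontal axis) of the 8 tested hyaluronan genes with 95% intervals as bars. Open squares show library size scaling alone and open triangles the offset for exonic length and GC content; HAS3, CEMIP and CEMIP2 lie below 0 and HYAL2, CD44 and TNFAIP6 above 0 by all 3, while the HAS2 triangle lies just below 0.

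Levels can be set against each other once divided by exonic length, taken here as the union of all annotated exons, which understates genes with many alternative exons such as CD44. On that scale HAS3 stood first, with 146 ± 2.49 CPM per kb in shVCAN and 189.5 ± 2.36 CPM per kb in shGFP (SD, n = 3 each). This level was 5.90 times that of CEMIP, the next member, in shVCAN and 5.58 times in shGFP. CEMIP had 24.7 ± 0.678 CPM per kb in shVCAN and 33.9 ± 1.52 in shGFP, and CD44 had 21.8 ± 1.03 in shVCAN and 15.7 ± 0.436 in shGFP. HYAL2 followed CD44 in both groups, and HYAL3, TNFAIP6 and HYAL1 closed both orders. HAS2 and CEMIP2 changed places, with HAS2 at 6.44 ± 0.924 and CEMIP2 at 4.70 ± 0.182 CPM per kb in shVCAN, against 5.82 ± 0.664 for HAS2 and 7.003 ± 0.475 for CEMIP2 in shGFP. No neighbours in either order overlapped in their tumours' values.

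**Figure D3:**
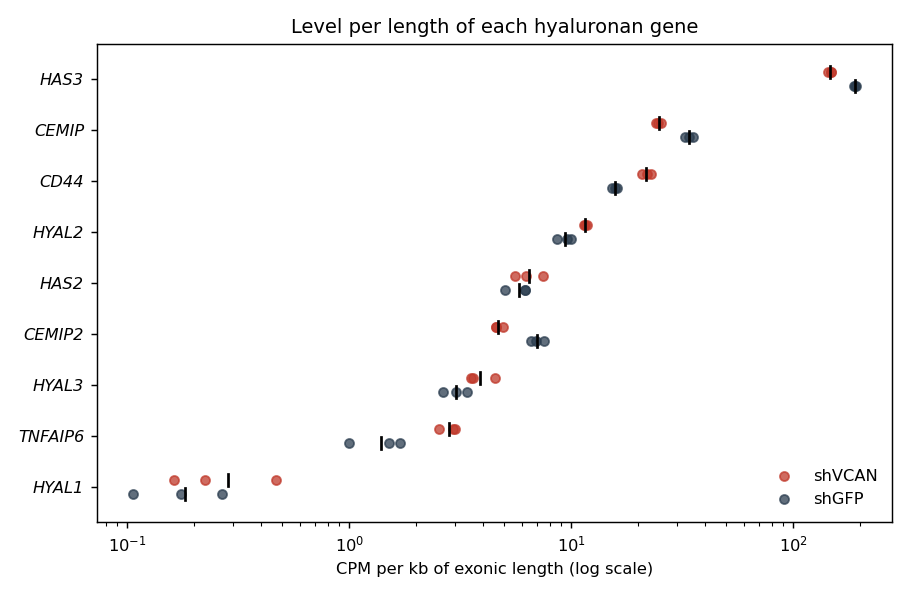
CPM per kb of exonic length (log axis) of each hyaluronan gene, ordered by the shVCAN mean. Points are tumours and black ticks group means; HAS3 lies at 146 in shVCAN and 189.5 in shGFP, above every other member.

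Ratios of counts within 1 library do not depend on how libraries are scaled. The 4 ratios were chosen after the values had been seen, and their p-values were adjusted together. HAS2 counts were 3.38%, 3.02% and 4.12% of HAS3 counts in the shVCAN tumours, against 2.62%, 2.08% and 2.61% in the shGFP tumours. HYAL2 counts were 28.3%, 27.9% and 27.7% of CEMIP counts in the shVCAN tumours, against 15.8%, 16.7% and 16.8% in the shGFP tumours. CD44 counts were 27.99%, 26.6% and 30.1% of HAS3 counts in the shVCAN tumours, against 16.2%, 15.0% and 15.8% in the shGFP tumours. In these 3 ratios every shVCAN tumour lay above every shGFP tumour, with differences of 0.52, 0.77 and 0.85 in mean log2 ratio. An exact two-sided permutation test gave p = 0.1 for each, the smallest that 3 against 3 tumours allow (Benjamini-Hochberg adjusted p = 0.133). HYAL2/CEMIP and CD44/HAS3 each divide a member that rose by a member that fell, both without overlap between groups. Their separation was thus fixed by the choice, and their p-values add nothing to the calls. HAS2/HAS3 divides a member that was not called by HAS3, which fell without overlap. It too was picked with these values known, so its p-value adds nothing to the HAS3 call. The adjustment covers the 4 chosen ratios only, not the other pairs that could have been picked. CEMIP2 counts were 24.1%, 25.2% and 22.8% of CEMIP counts in the shVCAN tumours, against 29.3%, 23.4% and 25.7% in the shGFP tumours, which overlap (exact permutation p = 0.4).

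**Figure D4:**
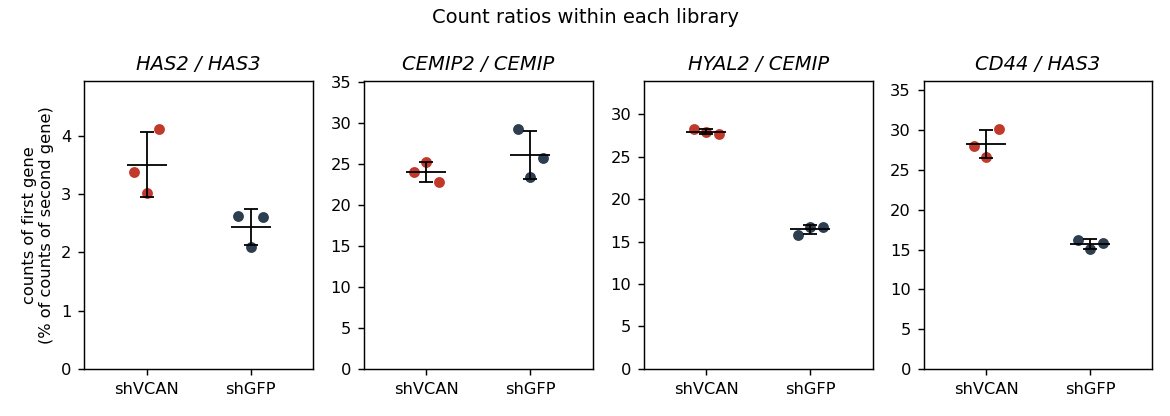
Counts of the first gene as a percentage of counts of the second gene in the same library, with linear axes from 0. Points are tumours, bars the mean ± SD of 3 tumours; the groups are apart in HAS2/HAS3, HYAL2/CEMIP and CD44/HAS3 and overlap in CEMIP2/CEMIP.

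The rest of the hyaluronan pathway was followed in 5 lists of 52 genes, of which 35 were tested, 9 rose, 11 fell and 15 were not called, with a median log2 fold change of −0.17. The calls made up 57.1% of the 35 tested (25.7% higher and 31.4% lower), against 40.3% of all tested genes (19.2% higher and 21.1% lower). The lists too were chosen with earlier results of these data known, so their shares are a description only. The balance turned with the scaling, with 10 higher and 8 lower by library size alone and 8 higher and 13 lower with the offset for length and GC content. Over all tested genes, library size alone gave 5228 higher and 1890 lower, and the offset gave 3169 higher and 3119 lower. In the supply of sugar precursors, 3 of 8 tested genes rose and none fell (37.5% called, against 40.3% of all tested genes), with a median of 0.032. UAP1, which makes UDP-N-acetylglucosamine, averaged 68.3 ± 3.93 CPM in shVCAN and 52.3 ± 1.3 CPM in shGFP (SD, n = 3 each; log2 fold change 0.38, adjusted p = 7.75e-05). GFPT2, an isoenzyme of the rate-limiting step of the hexosamine pathway, averaged 63.6 ± 2.28 CPM in shVCAN and 50.7 ± 3.36 CPM in shGFP (0.33, adjusted p = 0.000687). UGP2, which makes UDP-glucose, averaged 67.6 ± 1.37 CPM in shVCAN and 55.3 ± 4.19 CPM in shGFP (0.29, adjusted p = 0.00199). With library size alone the log2 fold changes were 0.46 for UGP2 and 0.49 for GFPT2. GFPT1 had a log2 fold change of −0.19 and missed the threshold (adjusted p = 0.052). It was −0.26 and called without shVCAN tumour 3 (adjusted p = 0.0225), −0.24 and called without shGFP tumour 3 (adjusted p = 0.03), −0.026 by library size alone and −0.11 when shGFP tumour 1 was left out. Without shVCAN tumour 3 or shGFP tumour 3, 1 gene of the list fell. With the offset for length and GC content, UAP1, GFPT2 and UGP2 rose, and GFPT1, UGDH and GNPNAT1 fell. UGDH, which makes UDP-glucuronic acid, and GNPNAT1 are named here after their values were seen, and GNPNAT1 shares 35.6% of its exonic bases with an antisense gene.

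In the list of other synthase, hyaluronidase and lysosomal genes, 3 of 7 were tested (33.3% called, against 40.3% of all tested genes) and 1 fell. It was GUSB, the lysosomal beta-glucuronidase that trims hyaluronan fragments, with 39.8 ± 3.34 CPM in shVCAN and 67.1 ± 1.84 CPM in shGFP (SD, n = 3 each; log2 fold change −0.75, edgeR adjusted p = 3.31e-09). HEXA, a lysosomal hexosaminidase gene, averaged 0.856 CPM in shVCAN and 0.91 CPM in shGFP, with a log2 fold change of −0.088, and was not called. It shares 16.3% of its exonic bases with other genes, and how reads there were counted is not stated. HAS1, SPAM1 and HYAL6P had 0 counts throughout.

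Among other hyaluronan receptors 4 of 7 were tested (50% called, against 40.3% of all tested genes). HMMR, also called RHAMM, which binds hyaluronan and the mitotic spindle, rose to 31.0 ± 2.02 CPM in shVCAN, against 19.6 ± 2.82 CPM in shGFP (SD, n = 3 each; log2 fold change 0.66, edgeR adjusted p = 1.38e-05). TLR2, an innate receptor reported to respond to hyaluronan fragments, had 34, 21 and 22 counts in the shVCAN tumours, against 43, 34 and 43 counts in the shGFP tumours, and fell (log2 fold change −0.94, adjusted p = 0.0156). The TLR2 call was lost without shVCAN tumour 2, shVCAN tumour 3 or shGFP tumour 3 (adjusted p = 0.0572, 0.0557 and 0.0563). TLR4 and STAB1 had log2 fold changes of −0.29 and 0.18 and were not called. LYVE1, a marker of lymphatic vessels and some macrophages, averaged 0.024 CPM in shVCAN and 0.028 CPM in shGFP.

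Of 18 hyaluronan-binding matrix and serum proteins, 8 were tested, 3 rose and 1 fell. The calls made up 50% of the 8 tested, against 40.3% of all tested genes. Pentraxin 3 (PTX3), which helps to crosslink hyaluronan together with TNFAIP6 and inter-alpha-inhibitor in the mouse cumulus matrix, fell to 175.7 ± 9.28 CPM in shVCAN, against 277.5 ± 9.75 CPM in shGFP (SD, n = 3 each; log2 fold change −0.66, edgeR adjusted p = 2.35e-11). HAPLN1, the link protein that fastens versican to hyaluronan, had 101, 81 and 116 counts in the shVCAN tumours, against 29, 52 and 45 counts in the shGFP tumours, and rose (0.93, adjusted p = 0.00197). C1QBP, a mostly mitochondrial protein that can bind hyaluronan, rose by 0.26 on the log2 scale (adjusted p = 0.00103), by 0.15 with the offset for length and GC content, and by 0.43 with library size alone. HABP4, which shares 27.0% of its exonic bases with CDC14B on the opposite strand, rose by 0.29 (adjusted p = 0.0229). It rose by 0.46 by library size alone, and its call was lost with the offset (adjusted p = 0.0647) and without shVCAN tumour 3, shGFP tumour 1 or shGFP tumour 3 (adjusted p = 0.0782, 0.0579 and 0.0825). BCAN, NCAN, HAPLN2 and HAPLN3 were not called, and ITIH1, ITIH3 and HAPLN4 had 0 counts. HAPLN4 shares 96.6% of its exonic bases with other genes, and how reads there were counted is not stated. Its 0 counts therefore do not show that it was silent.

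Of 12 linkers, splicing regulators and sheddases of CD44, 8 fell, 2 rose and 2 were not called, with a median of −0.24. Among all tested genes 21.1% fell and 19.2% rose. Library size alone left 5 falls, namely ESRP1, ESRP2, IQGAP1, NF2 and MSN. By that scaling 1890 of the 16254 tested genes fell and 5228 rose. ESRP1, an epithelial splicing factor that favours the variant exons of CD44, averaged 6.06 ± 0.70 CPM in shVCAN and 12.5 ± 0.815 CPM in shGFP (SD, n = 3 each; log2 fold change −1.05, edgeR adjusted p = 4.98e-06). NF2, which encodes merlin, a membrane linker that binds the tail of CD44, averaged 270.2 ± 10.9 CPM in shVCAN and 412 ± 19.0 CPM in shGFP (−0.61, adjusted p = 2.93e-11). Moesin (MSN), which ties CD44 to actin, averaged 706 ± 17.4 CPM in shVCAN and 896.9 ± 27.5 CPM in shGFP (−0.35, adjusted p = 1.31e-07), and −0.18 was its log2 fold change with library size alone. The scaffold IQGAP1 averaged 85.8 ± 8.89 CPM in shVCAN and 122 ± 3.78 CPM in shGFP (−0.51, adjusted p = 3.61e-07). The 2 that rose were MMP14, a membrane protease that can shed CD44 (0.19, adjusted p = 0.000312), and TIAM1 (0.28, adjusted p = 0.0192), both named after their values were seen. The TIAM1 call was lost without shVCAN tumour 1, shVCAN tumour 3 or shGFP tumour 3 (adjusted p = 0.0571, 0.0618 and 0.176), and its log2 fold change without shGFP tumour 3 was 0.17. With library size alone the log2 fold changes were 0.36 for MMP14 and 0.45 for TIAM1, and with the offset 0.30 and 0.46. The calls lie beside the fall of the epithelial markers EPCAM, KRT8, KRT18 and CDH1 in the same tumours (4 of 5 tested, with KRT19 not called). The part of that fall in the ESRP1 result was not tested.

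**Figure D5:**
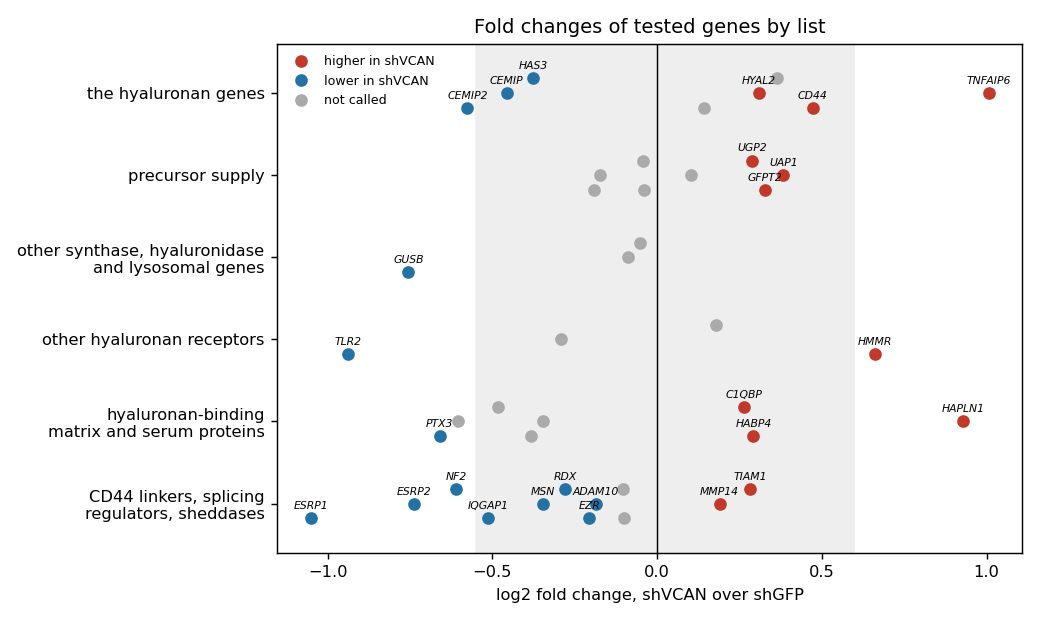
Log2 fold changes (shVCAN over shGFP) of tested genes in each list, 1 point per gene, with vertical offsets for legibility. Names mark called genes, red higher and blue lower in shVCAN; the grey band spans the 10th to 90th percentile of all tested genes, −0.55 to 0.60.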

How the data were processed

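The table deposited by the authors gives raw counts of reads for each gene, as whole numbers under Ensembl identifiers with version numbers. The submitters' processing notes name Trim Galore, STAR, DESeq2 and hg38, with no role or order. No source used here gives the counting program, annotation release, strand setting or any removal of mouse reads. Of 67071 rows, 45 second copies of pseudoautosomal genes, all at 0 counts, were left out. Symbols came from a gene table (60370 identifiers) and GENCODE 29 (289). Coordinates, exonic length and overlap came from GENCODE 29 on GRCh38, an older release than the identifiers' versions, and promoters from RefSeq.

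Groups were compared with edgeR 4.0.16 (quasi-likelihood, TMM, filterByExpr) in R 4.3.3, with group as the only term. An SE is the log2 fold change divided by the square root of F, and a 95% interval spans 1.96 SE. The fit was tested on simulated data. It recovered 64.2% of 67 genes changed 1.5-fold, 82.1% of 67 changed 2-fold and 98.5% of 66 changed 4-fold. That run held 15933 genes, and 0.0254% of its unchanged genes were called. In the tumours 40.3% of tested genes were called, and the rates with so large a share of changed genes were not tested. A gene that was not called may have a small change. Depth limits the precision, and intervals of low genes cover the spread between these libraries. Library pairs within a group differed by a chi-square of 3.22 to 5.9 per gene, so no library was a copy. All 9 members, VCAN and the 4 tested genes of smallest p of each list were named; 1 of them is not reported here, and other genes named for their place, overlap or counts were added. The members and lists were chosen with earlier results of these data known. Alternatives used DESeq2 1.42.0, limma 3.58.1, other scalings, filters, thresholds, a replicate block, each tumour left out, and an offset for length and GC content.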

Additional observations from a re-analysis of the deposited data

How the results depend on the processing

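The calls of HAS3, CEMIP, CEMIP2, CD44 and HYAL2 and their directions held under each of the 16 alternative fits. The log2 fold changes ranged from −0.38 to −0.21 for HAS3, −0.48 to −0.28 for CEMIP, −0.61 to −0.41 for CEMIP2, 0.44 to 0.64 for CD44 and 0.26 to 0.47 for HYAL2. TNFAIP6 ranged from 0.62 to 1.18 and lost its call with the offset for length and GC content. Library size alone gave 5 members higher, and 5228 genes higher and 1890 lower. Asking also for a change of 1 or more on the log2 scale, in either direction, left 1 member higher (TNFAIP6) and 0 lower, and 450 genes higher and 435 lower. HAS2 became −0.032 with the offset. HEXA became 0.0795 with library size alone and 0.0978 with the offset. With 1 tumour left out, STAB1 ranged from −0.12 to 0.71 and HEXA from −1.05 to 0.27, while 3 members higher and 3 lower were called each time. The causes were not tested. Numbers did not pair the samples (correlations of same-numbered deviations 0.0516, 0.0264 and −0.0605), and with the replicate block 3 members rose and 3 fell, with 3083 genes higher and 3428 lower.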

Other observations

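Of 26 tested genes within 1000000 bases of HAS3 on chromosome 16, 3 rose, 8 fell and 15 were not called, with log2 fold changes from −2.20 (CDH1, E-cadherin) to 0.68 and a median of −0.091. The share called was 42.3%, near the 40.3% of all tested genes. By direction, 11.5% were higher and 30.8% lower, against 19.2% higher and 21.1% lower among all tested genes. ESRP2, a splicing regulator of CD44, lies among them, with a log2 fold change of −0.74 (edgeR adjusted p = 0.000818). Around CD44 on chromosome 11, 2 of 9 tested neighbours fell and none rose, with a median of −0.051. Around HYAL2 on chromosome 3, 8 of 42 tested neighbours rose and 11 fell, with a median of −0.061. These shares, 22.2% lower around CD44 and 19.0% higher and 26.2% lower around HYAL2, lay near the 19.2% higher and 21.1% lower among all tested genes, except that no CD44 neighbour rose.

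HAS3, the member with the highest mean CPM, was set against 11571 genes of at least 5 CPM by Pearson's r of log2 CPM over the 6 libraries. The 3 genes most like it were NFAT5 (r = 0.9995), PLCB1 (0.9994) and SUSD6 (0.9993), and 1162 genes passed 0.95. The 6 points share the split into 2 groups, so this is a description. NFAT5, a transcription factor of the osmotic stress response, averaged 33.0 ± 1.55 CPM in shVCAN and 66.8 ± 2.12 CPM in shGFP (SD, n = 3 each). It starts 446.4 kb from the end of HAS3 on chromosome 16.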
